A study of Mus musculus with 9 samples.

Results

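The metalloproteinases and their inhibitors were read in the testis of mice that lack Tmem203, through 10 of 18193 genes. These were chosen by name, with earlier results of these data known. The inhibitors were Timp1, Timp2, Timp3 and Reck, and the enzymes were Mmp2, Mmp9, Mmp11, Mmp14, Mmp23 and Adamts1. Every probe set annotated to 1 of these genes alone was taken, which gave 23 of 45037 probe sets, 12 for inhibitors and 11 for enzymes, each of which reached a log2 signal of 5 on at least 1 array. The testes came from 5 Tmem203 null and 4 wild type (WT) samples, all from C57BL/6J mice 24 weeks old whose tissue had received no treatment. The null allele was made in C57BL/6 embryonic stem cells, is missing the codon that starts translation and a stretch before it in every cell of the animal, and keeps a short vector fragment after removal of the neo cassette. Left and right testes were harvested individually, so each array may or may not be another animal, and p-values here reflect only how far these samples differ among themselves.

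Metalloproteinases are zinc enzymes that cut matrix proteins, receptors and growth factors at the cell surface and around it. The secreted TIMP proteins bind their active sites, and Reck is an inhibitor tethered to the membrane. In the testis, Sertoli cell junctions and the basement membrane of the tubule are taken apart and rebuilt as germ cells move inward, and both enzymes and inhibitors are made by somatic and germ cells there.

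The start-site windows of the 3 TIMP genes are shown because each of these genes had at least 1 probe set that was higher in null testes. Each runs 5′ to 3′ on the strand of the gene and holds the 250 bases before the RefSeq start in GRCm38.p6. They lie at chrX:20869916-20870165 (plus strand) for Timp1, chr11:118355412-118355661 (minus strand) for Timp2 and chr10:86300162-86300411 (plus strand) for Timp3, and capitals mark the motif matches described after them.
Timp1: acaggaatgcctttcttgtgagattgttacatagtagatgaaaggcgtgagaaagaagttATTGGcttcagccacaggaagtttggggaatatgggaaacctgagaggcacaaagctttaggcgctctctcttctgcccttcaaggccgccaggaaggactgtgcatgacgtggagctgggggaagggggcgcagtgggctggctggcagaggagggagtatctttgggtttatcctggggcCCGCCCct
Timp2: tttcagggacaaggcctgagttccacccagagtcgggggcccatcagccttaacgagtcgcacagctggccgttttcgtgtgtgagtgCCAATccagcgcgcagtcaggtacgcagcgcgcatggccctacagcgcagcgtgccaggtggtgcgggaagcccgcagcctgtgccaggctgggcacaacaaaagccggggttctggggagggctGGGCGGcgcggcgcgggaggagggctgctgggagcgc
Timp3: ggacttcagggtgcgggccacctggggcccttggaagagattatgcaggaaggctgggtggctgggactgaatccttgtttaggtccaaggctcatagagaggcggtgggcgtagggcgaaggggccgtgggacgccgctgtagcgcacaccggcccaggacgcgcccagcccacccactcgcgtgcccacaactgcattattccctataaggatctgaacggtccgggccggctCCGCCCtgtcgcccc

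Both strands were searched for 4 motifs: the AP-1 site TGANTCA, the GC box GGGCGG, the TATA box TATAAA and the CCAAT box CCAAT. Each of the 3 TIMP windows held a single GC box, 8 to 3 bases before the start in Timp1, 37 to 32 in Timp2 and 15 to 10 in Timp3. A CCAAT box lay 190 to 186 bases before the start of Timp1 and 162 to 158 before that of Timp2, and no match in these windows overlapped another. Windows were found for 8 of the 10 genes. None of them held TGANTCA, which was present in 6.75% of all 32851 RefSeq windows of this length. A GC box was present in 32.7% of all windows, a CCAAT box in 33.8% and a TATA box in 12.4%. The GC content of the 8 genes' windows was 54.4% to 68.4%, above the median of 52.4% over all windows. Reck had 2 GC boxes and a CCAAT box, Mmp14 2 of each, Mmp11 2 GC boxes, Adamts1 3 GC boxes and a TATA box, and Mmp23 none of the 4 motifs. A match is a description of the letters and not a binding site, and these arrays hold no measurement of what binds there.

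Tmem203 itself had a log2 signal of 9.11 ± 0.03 (SD, n = 5) in null and 9.81 ± 0.13 (SD, n = 4) in WT testes, a log2 difference of -0.70 (standard error 0.06, adjusted p = 2.87e-04 from limma), with every null sample below every WT sample. Whether that probe set reads the deleted part is not known here. Array medians lay between 6.96 and 7.05, and WT replicate 3 stood apart, with a highest correlation with any other array of 0.996. The 3′ minus 5′ signal of the control transcript Gapdh was 0.85 ± 0.04 in null and 0.93 ± 0.01 in WT samples (two-sided exact permutation test, p = 0.0238), and its part in the results was not tested. For beta-actin the difference was -0.03 (same exact permutation test, p = 0.341). Precision is limited throughout by the number of arrays.

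Null testes had higher RNA of 3 of the 4 inhibitor genes, Timp1, Timp2 and Timp3, and of 1 of the 6 enzyme genes, Mmp9. Of the 23 probe sets, 9 were higher at an adjusted p under 0.05 and none was lower, where over all probe sets 4.12% were higher and 3.36% lower. Since the genes were chosen with earlier results of these data known, the counts and shares given here describe them and are no test. At an unadjusted p under 0.05 in limma 17 were higher and none was lower, beside 11.6% of all probe sets higher. Of the 9 past the adjusted threshold, inhibitors accounted for 8, among 12 inhibitor probe sets, and the enzymes for 1 among 11. Timp2 alone has 6 of these 12 and Timp3 has 4, so the probe set counts weigh these genes more than the others. At the thresholds of the study's methods, which add a change of at least 1.5-fold, 4 probe sets were called (1 of Timp1, 2 of Timp2, 1 of Mmp9), against a background of 0.635% called higher. In 12 of the 23 the lowest null sample exceeded the highest WT sample, which held for 5.68% of all probe sets. The median log2 difference was 0.47 over the inhibitor probe sets and 0.30 over the enzyme probe sets, and -0.01 over all probe sets. The direction was positive in 22 of the 23 and in 45.6% of all probe sets. Among the 22, the Mmp2 probe set 1416136_at was positive, and reached the detection threshold, only with null replicate 1. All 23 were detected and carry 1 gene symbol, and among the 29238 such probe sets these shares were larger. There 15.3% were higher at an unadjusted p under 0.05 in limma, and 48.6% were positive. Of the 29238, 1667 were higher at an adjusted p under 0.05 and 286 were called higher. In 2286 the lowest null sample exceeded the highest WT sample. Across the array, 55.1% of the probe sets past the threshold were higher in null testes. That share was 42.3% after the arrays were centred on their medians, a step under which no log2 difference of the 23 changed sign. In whole testis, a larger or smaller share of cells of a type and more or less RNA per cell cannot be told apart.

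**Figure D1:**
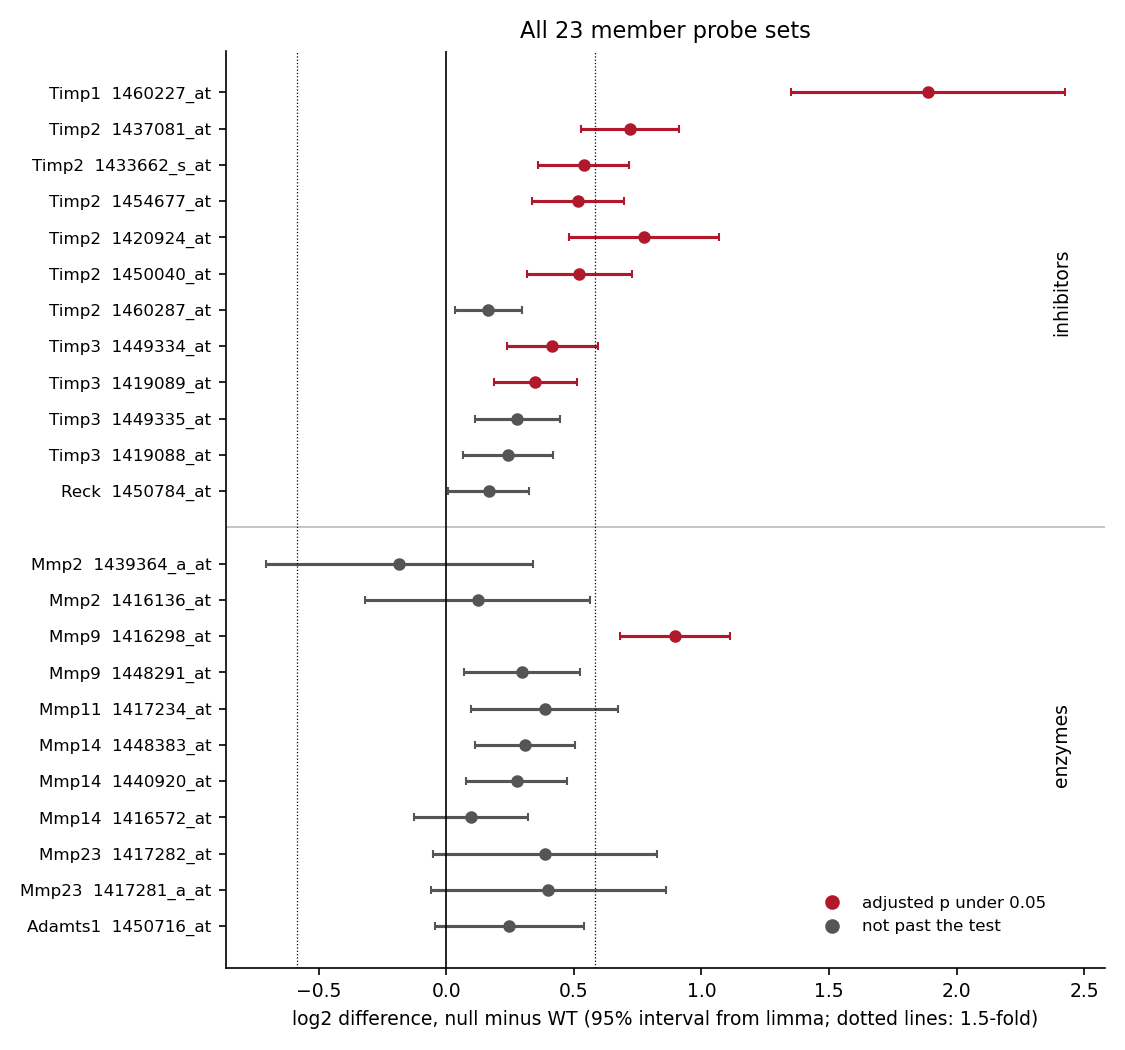
Log2 difference, null minus WT, of each of the 23 probe sets (horizontal axis), with 95% intervals from limma and inhibitors above enzymes. Red points passed an adjusted p of 0.05 and dotted lines mark a 1.5-fold change. Of the inhibitor probe sets 8 of 12 are red, of the enzyme probe sets 1 of 11, and the only point left of 0 is a probe set of Mmp2. Several probe sets can read the same gene, as for Timp2 and Timp3.

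Timp1 encodes a secreted inhibitor of most matrix metalloproteinases, which also binds the latent form of Mmp9, and it had the largest difference of the 10 genes. Its only probe set, 1460227_at, had log2 signals of 9.41, 9.03, 8.85, 8.72 and 9.08 in null testes, against 7.31, 7.69, 7.22 and 6.31 in WT testes. The groups did not overlap, and the lowest WT sample, replicate 4, lay well under the other WT samples. The difference was 1.89 (standard error 0.24, 95% interval 1.35 to 2.42, adjusted p = 0.00169), or 3.70-fold. The spread was 0.26 (SD, n = 5) in null and 0.58 (SD, n = 4) in WT samples. Without any single array the log2 difference of Timp1 lay between 1.61 and 2.07.

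Timp2 encodes the inhibitor that, together with Mmp14, brings the latent form of Mmp2 to its activation at the cell surface, and that blocks the same enzymes when in excess. It was read by 6 probe sets, of which 5 were higher in null testes, each with all null samples above all WT samples. On 1437081_at the log2 signals were 7.51, 7.09, 7.35, 7.31 and 7.46 in null and 6.51, 6.58, 6.72 and 6.68 in WT testes, a difference of 0.72 (standard error 0.09, adjusted p = 0.00124) or 1.65-fold. On 1420924_at they were 7.26, 6.79, 6.85, 7.13 and 7.40 in null and 6.23, 6.19, 6.57 and 6.25 in WT testes, a difference of 0.78 (standard error 0.13, adjusted p = 0.00702) or 1.71-fold. These were the only Timp2 probe sets with a change of at least 1.5-fold. Null replicate 2 was the lowest null sample on both, and WT replicate 3 the highest WT sample.

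The other 3 Timp2 probe sets that passed had similar differences. The log2 signals of 1454677_at were 12.76, 12.45, 12.59, 12.57 and 12.73 in null and 12.07, 11.97, 12.26 and 12.11 in WT testes (difference 0.52, standard error 0.08, adjusted p = 0.00467). Those of 1450040_at were 10.37, 10.14, 10.21, 10.45 and 10.29 in null and 9.68, 9.57, 9.83 and 9.99 in WT testes (difference 0.52, standard error 0.09, adjusted p = 0.00897). The third, 1433662_s_at, whose suffix marks probes that can be shared between transcripts, had a difference of 0.54 (standard error 0.08, adjusted p = 0.00380). The remaining probe set, 1460287_at, disagreed in size, with 12.26, 12.16, 12.18, 12.22 and 12.23 in null and 11.94, 12.07, 12.18 and 11.98 in WT testes. Its groups overlapped through WT replicate 3, and its difference of 0.16 (95% interval 0.03 to 0.30, adjusted p = 0.126) passed, at an adjusted p of 0.0410, when that array was left out. Which part of the transcript each probe set reads is not known here.

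Timp3 encodes the TIMP that binds to the matrix and that also inhibits ADAM and ADAMTS enzymes. Of its 4 probe sets 2 were higher in null testes. On 1449334_at the log2 signals were 9.50, 9.18, 9.30, 9.44 and 9.43 in null and 8.91, 8.80, 9.02 and 9.08 in WT testes, a difference of 0.42 (standard error 0.08, adjusted p = 0.0130) or 1.33-fold. On 1419089_at they were 9.50, 9.26, 9.29, 9.38 and 9.18 in null and 9.05, 8.85, 8.97 and 9.02 in WT testes, a difference of 0.35 (standard error 0.07, adjusted p = 0.0186). The groups did not overlap on either, although 1419089_at did not pass without WT replicate 2 (0.31, adjusted p = 0.0563). The others had differences of 0.28 on 1449335_at (adjusted p = 0.0504, or 0.0483 without WT replicate 3, groups apart) and 0.24 on 1419088_at (adjusted p = 0.0971, groups overlapping).

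Reck, the membrane-anchored inhibitor of Mmp2, Mmp9 and Mmp14, did not pass the test. Its log2 signals were 8.96, 8.70, 8.82, 8.74 and 8.78 in null and 8.71, 8.67, 8.47 and 8.68 in WT testes. Of the null samples 4 lay above the highest WT sample. The difference of 0.17 had a 95% interval of 0.01 to 0.33 (adjusted p = 0.193).

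**Figure D2:**
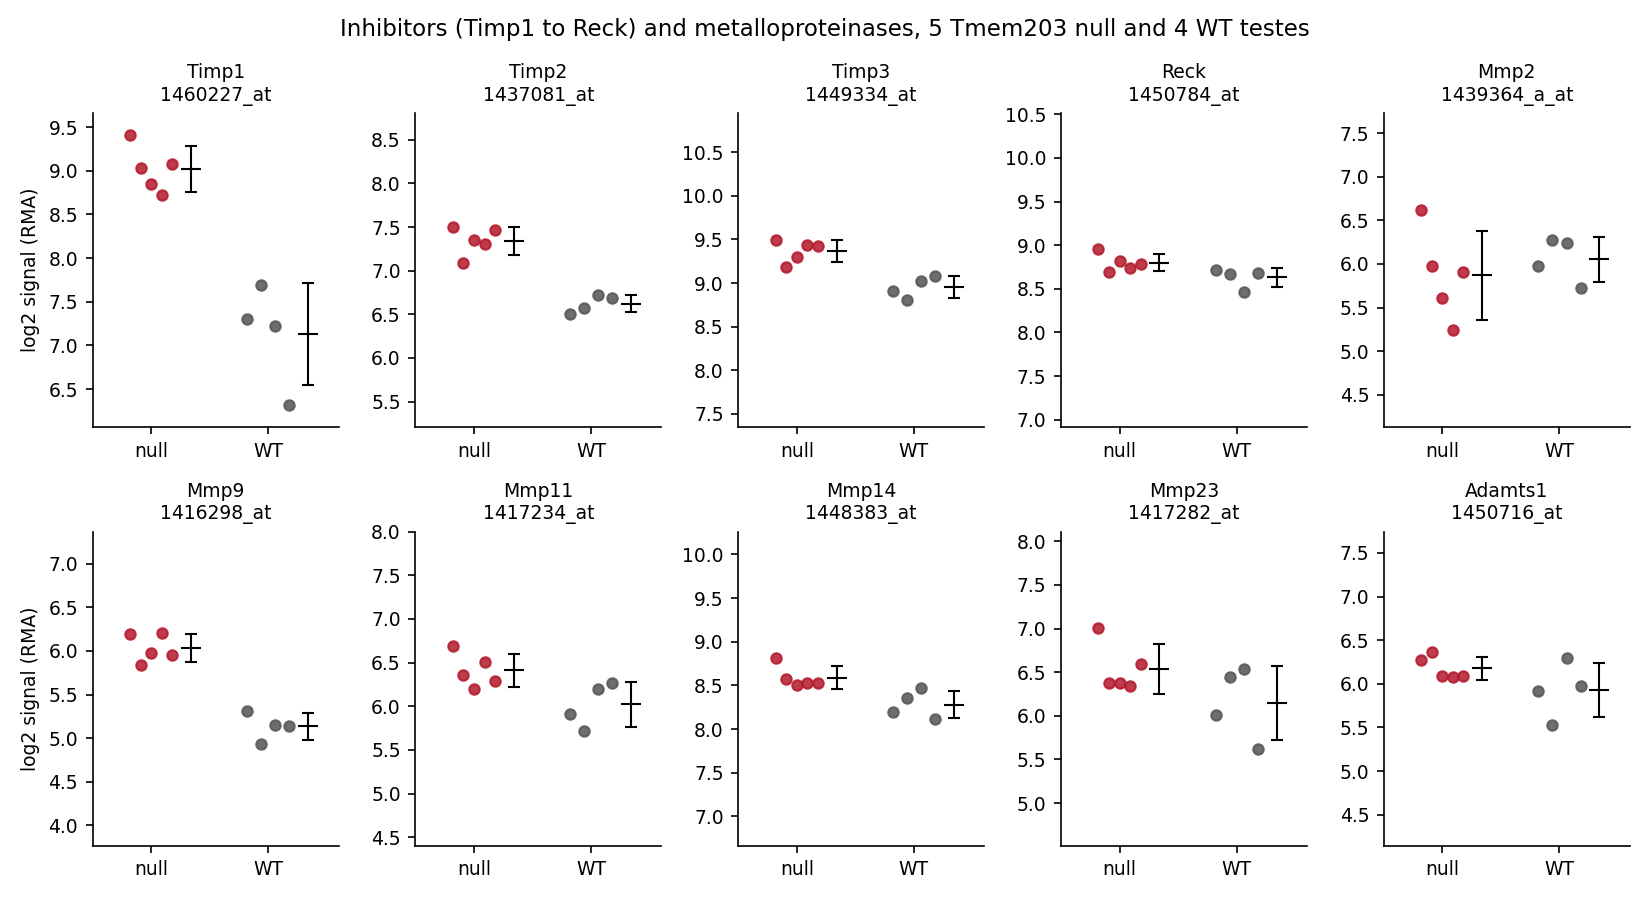
Log2 signal (vertical axis, RMA) of each gene's probe set with the smallest p in 5 null (red, left) and 4 WT testes (grey, right), with bars for mean ± SD. All panels span the same number of log2 units. The groups do not overlap for Timp1, Timp2, Timp3, Mmp9 and Mmp14, though the gap is narrow for Mmp14. Timp1 is at 9.02 ± 0.26 in null and 7.13 ± 0.58 in WT testes. Timp2, Timp3, Mmp9 and Mmp14 each also had a probe set, not shown here, on which the groups overlapped.

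Among the enzymes, Mmp9 was higher in null testes, although its probe sets disagreed in size. Mmp9 is the gelatinase that Timp1 binds, best known from leukocytes and from basement membrane breakdown. On 1416298_at the log2 signals were 6.19, 5.84, 5.98, 6.21 and 5.95 in null and 5.31, 4.93, 5.15 and 5.15 in WT testes. The groups did not overlap, and the difference of 0.90 (standard error 0.10, 95% interval 0.68 to 1.11, adjusted p = 7.10e-04) was 1.86-fold. The WT signals lay near the detection threshold of 5, which limits how well that fold is determined. On 1448291_at they were 6.02, 5.94, 5.97, 5.71 and 5.76 in null and 5.35, 5.76, 5.76 and 5.47 in WT testes, which overlapped. That difference was 0.30 (95% interval 0.07 to 0.53, adjusted p = 0.114). The mean of both probe sets gave 0.60 for Mmp9 (standard error 0.06, adjusted p = 2.48e-04 in limma over 16180 genes), with 5.96 ± 0.10 in null (SD, n = 5) and 5.36 ± 0.06 in WT samples (SD, n = 4).

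Mmp2, the other gelatinase, had the widest spread of the enzymes among null samples. On 1439364_a_at its log2 signals were 6.62, 5.98, 5.61, 5.24 and 5.91 in null and 5.98, 6.27, 6.24 and 5.72 in WT testes. Null replicate 1 lay above and null replicates 3 and 4 below every WT sample, and the difference was -0.18 (95% interval -0.71 to 0.34, adjusted p = 0.687), or -0.37 without null replicate 1 and -0.03 without null replicate 4. On 1416136_at only null replicate 1, at 5.29, reached a log2 signal of 5, with 4.32 to 4.97 in the other null samples and 4.39 to 4.88 in WT samples. The difference on that probe set was 0.12 (adjusted p = 0.752), and it lay between -0.02 without null replicate 1 and 0.23 without null replicate 3 or 4. Both intervals take in changes in either direction, so neither an increase nor a decrease of Mmp2 was detectable with these arrays.

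Mmp14, the membrane-type enzyme that activates latent Mmp2, had 2 of 3 probe sets on which the groups did not overlap, with the null samples above, and none that passed. On 1448383_at the log2 signals were 8.81, 8.58, 8.50, 8.53 and 8.52 in null and 8.19, 8.35, 8.47 and 8.11 in WT testes (difference 0.31, 95% interval 0.11 to 0.51, adjusted p = 0.0641). The gap between the groups was narrow, between null replicate 3 and WT replicate 3, and without the WT array the adjusted p was 0.0306. On 1440920_at they were 7.56, 7.16, 7.16, 7.33 and 7.51 in null and 7.10, 7.07, 7.04 and 7.06 in WT testes (difference 0.28, adjusted p = 0.0918). The third probe set, 1416572_at, had a difference of 0.10 (adjusted p = 0.611), which lay between 0.05 without null replicate 1 and 0.17 without null replicate 4. The mean of the 3 gave 0.23 for Mmp14 (95% interval 0.07 to 0.39, adjusted p = 0.0574).

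The remaining 3 enzymes did not pass the test, and their groups overlapped on each probe set. Mmp11, or stromelysin-3, an enzyme that furin activates inside the cell, had 6.69, 6.36, 6.20, 6.51 and 6.29 in null and 5.92, 5.71, 6.19 and 6.27 in WT testes (difference 0.39, 95% interval 0.10 to 0.67, adjusted p = 0.104). Adamts1, which cleaves proteoglycans, had 6.27, 6.36, 6.09, 6.07 and 6.09 in null and 5.92, 5.53, 6.29 and 5.98 in WT testes (difference 0.25, 95% interval -0.05 to 0.54, adjusted p = 0.298), and its difference was 0.11 without WT replicate 2. Mmp23 is a membrane enzyme known mainly from reproductive tissues. On 1417281_a_at it had 8.41, 7.65, 7.43, 7.58 and 7.69 in null and 7.03, 7.61, 7.69 and 7.06 in WT testes, where WT replicates 2 and 3 lay among the null samples. Its differences were 0.40 (95% interval -0.06 to 0.86, adjusted p = 0.283) on that probe set and 0.39 (adjusted p = 0.274) on 1417282_at. They were 0.24 on 1417281_a_at without null replicate 1 and 0.21 on 1417282_at without WT replicate 4.

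Set side by side within each array, the inhibitors averaged further above their WT level than the enzymes in every null sample with Timp1 among them, and in 3 of 5 without it. With each gene as the mean of its probe sets, the 4 inhibitors averaged 0.94, 0.64, 0.67, 0.64 and 0.76 log2 units above the WT mean in null replicates 1 to 5. The 6 enzymes averaged 0.63, 0.29, 0.14, 0.17 and 0.29 above it. The 4 inhibitors therefore exceeded the enzymes by 0.31 to 0.52 in null samples and by -0.18 to 0.15 in WT samples. Without Timp1, the other 3 inhibitors averaged 0.49, 0.22, 0.32, 0.33 and 0.36 above the WT mean in null samples, which left them below the enzymes in null replicates 1 and 2. Their excess over the enzymes was then -0.14 to 0.17 in null and -0.20 to 0.12 in WT samples, and the groups overlapped. The median log2 difference over genes was 0.43 for inhibitors and 0.32 for enzymes. Both medians lay above that of all 16180 genes, -0.02. Whether inhibitors and enzymes differ in their change was not tested, since the genes were chosen with earlier results of these data known.

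Differences within an array were taken for Timp1 with Mmp9, Timp2 with Mmp14 and Timp2 with Mmp2, inhibitors and enzymes known to bind. Other pairs were not computed, and not all inhibitors were further above WT than the enzymes. In null samples Reck was 0.06 to 0.33 and Timp3 0.24 to 0.49 above its WT mean, while Mmp9 was 0.50 to 0.75 above its own. Timp1 minus Mmp9, each relative to its WT mean, was 0.99 to 1.53 in null and -0.77 to 0.57 in WT samples. Timp2 minus Mmp14 was 0.21 to 0.46 in null and -0.17 to 0.15 in WT samples, again without overlap. Timp2 minus Mmp2 was 0.03 to 1.12 in null and -0.24 to 0.29 in WT samples, which overlapped. The low value of that pair belonged to null replicate 1, whose Mmp2 signal was the highest of all 9 arrays.

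**Figure D3:**
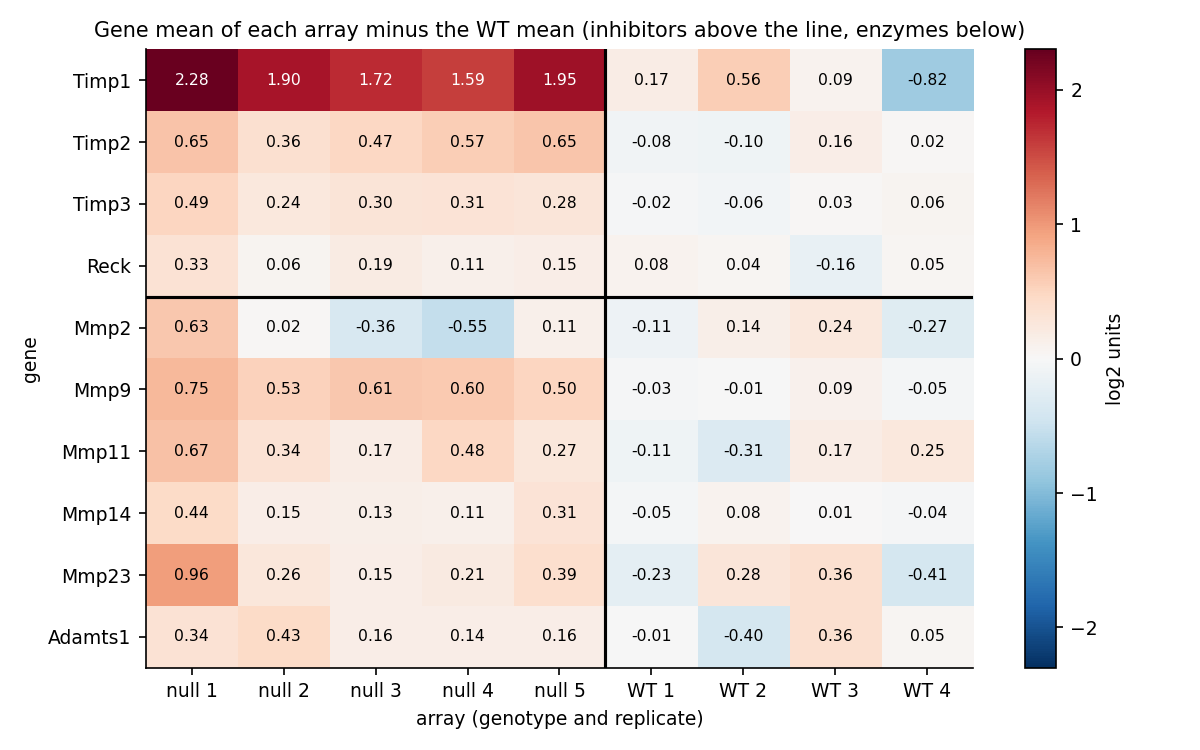
Deviation of each array (columns, null left of WT) from the WT mean of a gene (rows, mean over its probe sets, log2 units), with inhibitors above the line and enzymes below it. Timp1 is 1.59 to 2.28 above the WT mean in null samples, Mmp2 runs between -0.55 and 0.63, and null replicate 1 is the highest null sample in 9 of the 10 genes.

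Null replicate 1 was the highest null sample on 19 of the 23 probe sets, 10 of 12 for inhibitors and 9 of 11 for enzymes. It also had the highest mean log2 level of the null samples for each of the 6 lists of somatic and spermatogonial markers, namely Sertoli cells (11.58, with 11.43 to 11.52 in the others), Leydig cells (12.00, with 11.73 to 11.99), macrophages (9.35, with 9.06 to 9.18), peritubular myoid cells (10.09, with 9.85 to 9.97), endothelium (7.12, with 6.96 to 7.06) and spermatogonia (9.64, with 9.56 to 9.60). For spermatocytes (11.74), round spermatids (12.73) and elongating spermatids (14.07) it had the lowest, so this array was the highest or lowest null sample on all 9 lists. The part of these cell types in its values was not tested. Without it and WT replicate 3 together, a choice made after the values were seen, 2 of the 11 enzyme probe sets passed instead of 1.

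The genes whose profile over the 9 arrays was nearest to that of Timp2 on 1437081_at, among 29237 other probe sets, were Nt5e, a cell-surface nucleotidase, Smad3, a transducer of TGF-beta signals, and Esr1, an oestrogen receptor. Their root mean square differences from Timp2 were 0.07, 0.08 and 0.09 log2 units, and their log2 differences were 0.69, 0.70 and 0.61. Nearest to Mmp9 on 1416298_at were Tns3, a focal adhesion protein, Jam2, a junctional adhesion molecule, and the interleukin receptor subunit gene Il13ra1, at 0.13, 0.14 and 0.14 log2 units. Their log2 differences were 0.88, 0.86 and 0.94. These genes were chosen for their likeness, which is a description only.

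Of the other metalloproteinases, none of the 7 further matrix metalloproteinase genes that were detected passed the test, in limma, in either direction, with a median of -0.05. At an unadjusted p under 0.05, 1 of the 7 was higher and 2 were lower. The nearest was Mmp19, with 0.36 (adjusted p = 0.0573), and 1 gene of the list was higher without WT replicate 3 or WT replicate 4. Another 6 of that list, among them Mmp8, Mmp12 and Mmp13, were not detected on any array. Timp4, the TIMP that was not among the members, had a difference of -0.13 (adjusted p = 0.559). Of 14 other ADAMTS and ADAMTS-like genes, 2 were higher and 3 lower (5 and 3 at an unadjusted p under 0.05), with a median of 0.10. Lower were Adamts9, a secreted enzyme that cleaves proteoglycans (-0.46, adjusted p = 0.00107), and the ADAMTS-like gene Adamtsl5 (-0.44, adjusted p = 0.00302). The other probe set of Adamtsl5 had -0.15 and did not pass. Adamts5, an aggrecan-cleaving enzyme that Timp3 inhibits, was higher by 0.40 (adjusted p = 0.00614), as 0.43 on another probe set, while its last 2 had 0.09 and 0.07 and did not pass. The other higher gene, Adamts12, had 0.47 (adjusted p = 0.0283), with mean log2 signals of 4.88 in null and 4.41 in WT testes. It lay near the detection threshold of 5 and counts as detected only through null samples. The count of 2 higher was 1 without any 1 of null replicates 1, 3 and 4 or WT replicate 4.

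Of 11 ADAM genes with known or presumed activity outside germ cells, 4 were higher and none lower (6 and 1 at an unadjusted p under 0.05 in limma), with a median of 0.21. Adam10, a sheddase of Notch and cadherins that Timp3 inhibits, had 0.43 (adjusted p = 0.00371), while its other 3 probe sets, at 0.55 (adjusted p = 0.0893), 0.15 and 0.05, did not pass. Adam9 had 0.45 (adjusted p = 0.0136) and Adam23, a non-catalytic adhesion member, 0.39 (adjusted p = 0.0171). Adam23 had 0.36 (adjusted p = 0.0466) on another probe set and -0.10 on its last, which did not pass. The count of 4 was 2 without WT replicate 2, where Adam23 had an adjusted p of 0.0544.

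ADAM genes known from germ cells were lower where they passed. Of 15, none was higher and 3 were lower (none and 7 at an unadjusted p under 0.05 in limma), with a median of -0.12. These were Adam21 (-0.50, adjusted p = 0.00240), Adam34 (-0.38, adjusted p = 0.0160) and Adam25 (-0.22, adjusted p = 0.0413). The mean log2 level over this list was 11.32 to 11.42 in null and 11.50 to 11.56 in WT samples, without overlap. Adam2, Adam3 and Adam18, which encode sperm surface proteins, had differences of -0.12, 0.00 and -0.08 and did not pass. Marker lists for spermatocytes, round spermatids and elongating spermatids had no gene past the threshold in limma, with 2, 2 and 1 lower and none higher at an unadjusted p under 0.05, and mean log2 levels of 11.74 to 11.85, 12.73 to 12.81 and 14.07 to 14.12 in null samples and 11.84 to 11.92, 12.76 to 12.93 and 14.10 to 14.12 in WT samples. Of 8 spermatogonial markers, Gfra1 (1.27) and Kit (0.46) were higher and Sohlh1 (-0.40) was lower, with mean log2 levels of 9.56 to 9.64 in null and 9.46 to 9.64 in WT samples. Adam25 did not pass in 7 of the 9 fits that left out 1 array, with adjusted p from 0.0577 to 0.101 in those 7, and passed only without null replicate 2 or WT replicate 4.

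Of 20 detected genes that activate, bind or clear metalloproteinases, 6 were higher and 1 lower. Their median was 0.22, with 9 higher and 4 lower at an unadjusted p under 0.05. The lower one was the tissue kallikrein Klk1 (-0.91, adjusted p = 7.34e-04), a serine protease whose 4 probe sets ran between -0.91 and -0.14. Higher were the lysosomal proteases Ctsl (0.33, adjusted p = 0.00258) and Ctsb, Thbs1 (0.46, adjusted p = 0.00639), a matrix glycoprotein that binds metalloproteinases, Sparc, the endocytic receptor Lrp1 and Furin, the convertase that activates Mmp11 and Mmp14. The other probe sets of Ctsl and Thbs1 had 0.13 and 0.11 and did not pass. The count of 6 was 3 without any 1 of null replicates 1, 4 and 5 or WT replicate 2, and 3 after median centring.

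Of 33 matrix and basement membrane genes, which encode substrates of these enzymes, 3 were higher, 3 were lower and 27 did not pass, with a median of 0.17 and with 13 higher and 6 lower at an unadjusted p under 0.05. Higher were Lama1 (0.49, adjusted p = 0.00239), Col4a2 (0.50, adjusted p = 0.00600) and Lamc1 (0.40, adjusted p = 0.0127), all components of basement membranes, of which Lamc1 had a second probe set at 0.12 that did not pass. Lower were Col4a6, Lum and Col18a1. The lower genes numbered 1 without null replicate 4, and the higher ones 5 without any 1 of null replicate 2, WT replicate 2 and WT replicate 3. Over all 16180 genes, 8.03% were higher and 6.82% lower by the same rule, with a median of -0.03. At an unadjusted p under 0.05 in limma, 3095 of the 16180 were higher and 3287 lower. These are the background for the counts of every list here.

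**Figure D4:**
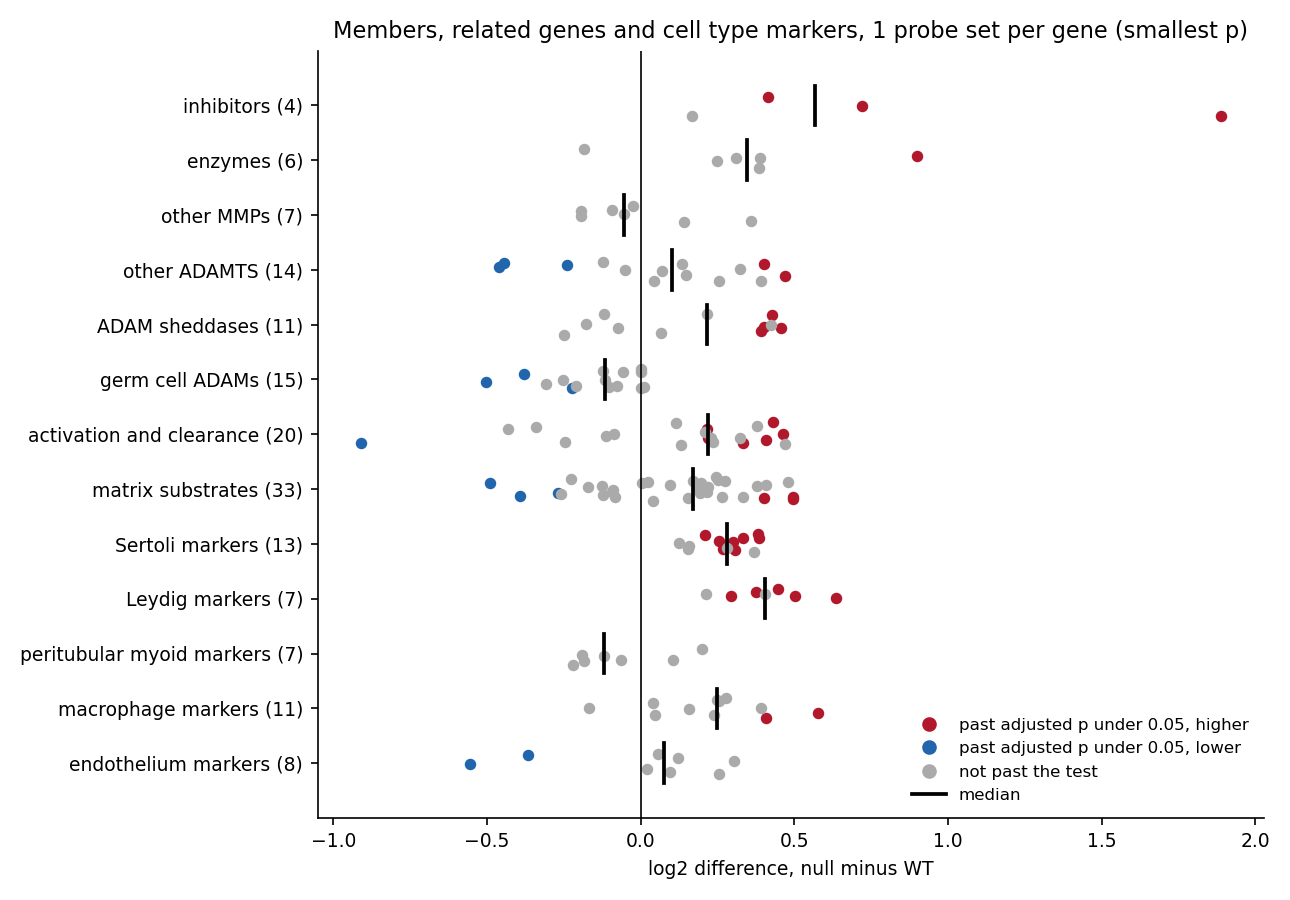
Log2 difference, null minus WT (horizontal axis), of each detected gene of the inhibitors, the enzymes, related gene lists and cell type markers (number of genes in brackets), with 1 probe set a gene, the smallest p deciding. Red points were higher and blue points lower at an adjusted p of 0.05, and black bars are medians. The medians are 0.57 for inhibitors, 0.35 for enzymes, -0.05 for other matrix metalloproteinases and -0.12 for germ cell ADAM genes.

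Among markers of somatic cells, those of Sertoli and Leydig cells were mostly higher in null testes, and only the mean level of the Sertoli list had no overlap between the genotypes. Of 13 Sertoli cell markers, 8 were higher and none lower (12 and none at an unadjusted p under 0.05 in limma), among them Sox9 (0.38) and Wt1 (0.26), and their mean log2 level was 11.43 to 11.58 in null and 11.16 to 11.33 in WT samples. Ctsl stands on this list as well as among the activating genes. Of 7 Leydig cell markers 5 were higher, such as Cyp11a1 (0.50), with levels of 11.73 to 12.00 in null and 11.31 to 11.78 in WT samples. Macrophage markers had 2 of 11 higher, Mrc1 (0.41) and Cd163 (0.58), with levels of 9.06 to 9.35 in null and 8.65 to 9.22 in WT samples. None of 7 peritubular myoid markers passed in limma, with 1 higher at an unadjusted p under 0.05 (9.85 to 10.09 in null and 9.76 to 10.21 in WT samples). Of 8 endothelial markers 2 were lower, Egfl7 and Vwf, with levels of 6.96 to 7.12 in null and 6.98 to 7.11 in WT samples. By the probe set with the smallest p, the median differences of the Sertoli and Leydig lists were 0.28 and 0.40, next to 0.57 for the inhibitors and 0.35 for the enzymes. With each gene as the mean of its probe sets, they were 0.26 and 0.39, next to 0.43 and 0.32. The part of these cells in the values of Timp1, Timp2, Timp3 and Mmp9 was not tested.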

How the data were processed

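RNA of 5 Tmem203 null and 4 WT testis samples had been hybridised to Affymetrix GeneChip arrays. The deposited log2 signals were made by the authors with Robust Multichip Average (RMA), which adjusts the background, quantile normalizes and summarises each probe set, so genes are compared between samples and not with each other. Limma is named, without its version, in the submitters' processing notes. Batches were not tested, as no scan dates were used here.

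The genotypes were compared on each probe set by lmFit and eBayes of limma 3.58.1 (R 4.3.3), with genotype as the only term and Benjamini-Hochberg adjustment over 45037 probe sets, 64 manufacturer controls having been left out. Detected means that at least 1 array reached a log2 signal of 5. The methods' thresholds further ask for a 1.5-fold change and 1 gene symbol. Symbols came from the platform annotation (1 gene for 34945 probe sets, several for 932, none for 9160), and 34741 were matched to RefSeq by Entrez identifier. Each listed gene was counted once, by the detected probe set with its smallest p.

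The 10 genes and all lists were chosen with earlier results of these data known, so no list was tested as a set. Named are all member probe sets, Tmem203, up to 3 genes of each related list with the smallest p past the threshold, and the 3 genes nearest in profile to the inhibitor and to the enzyme probe set with the smallest p. Mmp8, Mmp12, Mmp13, Mmp19, Timp4, Adam2, Adam3, Adam18, the markers and the further genes of lists were named after their values were seen. The sequences are RefSeq's, in GRCm38.p6. Other settings tried were median centring, quantile normalization again, a trended and robust variance, weighted arrays, detected probe sets only, no probe sets of shared design, a block for the replicate number, and leaving out single arrays. The procedure was tested on simulated data. Sequences were read and figures drawn in Python 3.11.15.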

Additional observations from a re-analysis of the deposited data

Results flagged for a closer look

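In groups of 4 or 5 samples, chance alone sets a sample this far apart in about 1 in 20 groups, and 3 of the 46 groups looked at had such a sample. On the Timp2 probe set 1420924_at, WT replicate 3 had a log2 signal of 6.57, with 6.19 to 6.25 in the other WT samples, a gap of 0.852 of the group's range. On the Mmp14 probe set 1448383_at, null replicate 1 had 8.81, with 8.50 to 8.58 in the other null samples, a gap of 0.747 of the range. On the Mmp23 probe set 1417281_a_at, null replicate 1 had 8.41, with 7.43 to 7.69 in the other null samples, a gap of 0.736 of the range.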

How the results depend on the processing

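Of 388 refits of single probe sets of the 10 genes, 376 kept the direction and the side of the threshold, 9 passed anew, 1 no longer passed and 2 turned in sign. Those 2 were Mmp2 1416136_at without null replicate 1 (-0.018, with -0.018 to 0.225 over the single arrays left out) and Mmp14 1416572_at without null replicate 1 and WT replicate 3 together (-0.0010). Enzyme probe sets past the threshold numbered 1, but 3 with array weights (Mmp9 1448291_at, adjusted p = 0.0468, and Mmp14 1448383_at, adjusted p = 0.0284), 2 without null replicate 1 and WT replicate 3, which was chosen after seeing the data, and 1 to 2 with single arrays left out; the cause was not tested. Inhibitor probe sets numbered 7 to 10 and all member probe sets 8 to 12, also with single arrays left out. The mean excess of inhibitors over enzymes in null samples was 0.43 log2 units, but 0.039 without Timp1, an exclusion chosen after seeing the data. Over the array, 3367 probe sets passed, 1925 to 3603 with 1 array left out. The Gapdh difference was -0.026 (exact permutation p = 0.341) when beta-actin took its place.

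Sample titles share replicate numbers, and the deviations of null and WT samples with the same number correlated at -0.07, 0.10, -0.04 and -0.00. Those of samples with different numbers correlated at -0.15 to 0.20. So few values cannot decide whether samples of the same number share an origin or a batch. With the replicate block, 9 member probe sets passed, 8 of inhibitors and 1 of enzymes, while over the array 1174 passed. No WT sample has the number 5, so under the block null replicate 5 had no weight in the genotype difference. Among related genes Adam34 (adjusted p = 0.0734), Adam25 (0.191), Ctsl (0.0509) and Lamc1 (0.0504) did not pass under the block. Counts of related lists also moved by over 1.5 times elsewhere. Higher activating genes numbered 6, but 3 with median centring and 2 with the block, and lower ones 1, but 2 with array weights. Higher ADAMTS and ADAMTS-like genes numbered 2, but 1 with the block or without null replicate 1 and WT replicate 3. Without that pair of arrays the higher ADAM genes outside germ cells numbered 2 in place of 4. Lower ADAM genes outside germ cells and lower further matrix metalloproteinases numbered 0, but 1 each with median centring. Higher further matrix metalloproteinases numbered 0, but 1 with a trended, robust variance, array weights or detected probe sets only. Higher matrix genes numbered 3, but 5, 6 and 7 in those same settings and 5 without the pair of arrays, and lower ones 3, but 5 with array weights and 0 with the block. Lower germ cell ADAM genes numbered 3, but 5 with a trended, robust variance and 1 with the block. Signals of Mmp2 1416136_at, and of Mmp9 1416298_at in WT, lay near the detection threshold, which limits their values.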
